A study of Mus musculus with 35 samples.

Results

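Glycolysis and the pentose phosphate pathway were followed through 33 genes in mouse acute myeloid leukemia cells, as messenger RNA and as ribosome footprints. The members were 33 listed genes, found by symbol among the 55487 Ensembl genes of the RNA and footprint count tables. They fall into 4 carriers for glucose and lactate, 3 hexokinases, 8 genes of upper glycolysis, 7 of lower glycolysis, 5 of lactate and pyruvate metabolism and 6 of the pentose phosphate pathway. The cells carried the MLL-AF9 fusion and a GFP reporter. They came from the leukemia of 1 terminally ill mouse, were grown outside the animal with stem cell factor and interleukins, and were injected into male mice aged 8 to 10 weeks. Bone marrow was harvested at the largest response to chemotherapy, cells with GFP were sorted out of it, and each library is 1 mouse.

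The cells held a guide RNA against Ogfod1 (sgOgfod1) or a scrambled guide (sgScramble). Ogfod1 is a prolyl hydroxylase that acts on the ribosomal protein Rps23. Treated mice received a diet free of branched chain amino acids together with 5+3 chemotherapy, that is cytarabine at 100 mg/kg daily for 5 days and doxorubicin at 3 mg/kg daily on the first 3 days. Vehicle mice received the standard amino acid diet and saline. Diet and chemotherapy changed together, so they cannot be told apart; below, treatment means both. The RNA libraries came from 6 treated sgOgfod1, 7 treated sgScramble, 5 vehicle sgOgfod1 and 5 vehicle sgScramble mice. The footprint libraries came from 2 treated sgOgfod1, 4 treated sgScramble, 3 vehicle sgOgfod1 and 3 vehicle sgScramble mice, all of which also had an RNA library. The comparisons are treated against vehicle in each genotype, sgOgfod1 against sgScramble in each condition, and the difference between the treatment effects of the genotypes.

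Glycolysis turns glucose into pyruvate and yields ATP and NADH. Lactate dehydrogenase turns pyruvate into lactate, which leaves the cell through monocarboxylate carriers, and pyruvate dehydrogenase turns it into acetyl-CoA for the mitochondrial cycle. The pentose phosphate pathway branches off at the first sugar phosphate and supplies NADPH and ribose for nucleotides. Many glycolytic genes are targets of the hypoxia-inducible factor and of Myc, and myeloid leukemia cells are known for high glycolytic use of glucose.

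Total counts ran from 31921768 to 142694163 over the 23 RNA libraries and from 5705585 to 14642692 over the 12 footprint libraries. Levels are in CPM, the usual scaling of counts to the library size, with library sizes adjusted by the trimmed mean of M values, and a call is an adjusted p under 0.05 from edgeR's quasi-likelihood test with Benjamini-Hochberg adjustment over all genes tested. Ogfod1 itself averaged 9.20 ± 3.03 RNA CPM in treated sgOgfod1 and 21.8 ± 6.22 in treated sgScramble cells (SD, n = 6 and 7), a called difference, and 10.8 ± 1.34 in vehicle sgOgfod1 and 22.7 ± 1.92 in vehicle sgScramble cells (SD, n = 5 each), where the edgeR adjusted p of 0.0846 missed the threshold. Its footprints were called lower in sgOgfod1 cells under both conditions. At least 9 of 10 markers of the leukemia were detected in every library. Markers of other marrow cells were detected too: in RNA their sums ran from 26363 to 87175 CPM in treated sgOgfod1, 11863 to 21214 in vehicle sgOgfod1, 23744 to 61779 in treated sgScramble and 10285 to 16903 in vehicle sgScramble cells for 16 neutrophil genes. For 16 genes of tissue macrophages the sums ran from 998 to 2478, 706 to 1051, 1036 to 6681 and 887 to 1266 CPM in the same order of groups, with 0 to 2 of the 16 genes at 0 in a library. In bulk samples fewer cells of a type and less RNA per cell cannot be told apart. Whether other cells or the sorted leukemia cells themselves carried these markers was not tested. Treated sgScramble replicate 4 and treated sgOgfod1 replicate 3, which have RNA only, stood apart from their groups.

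Per kilobase of exon, taken as the union of all annotated exons, mRNA levels in vehicle sgScramble cells spanned from 264 CPM for Ldha to 0.00387 CPM for Eno2. The next highest genes were Pkm at 210 CPM per kilobase and Aldoa at 194. Hk3 led the hexokinases with 153 CPM per kilobase of exon, against 15.6 for Hk1 and 7.89 for Hk2. Per kilobase of coding sequence, footprint levels were highest for Pkm at 602 CPM, Eno1 at 585 and Gpi1 at 550, and lowest for Eno2 at 0.533. Hk3 again led the hexokinases, with 136 footprint CPM per kilobase of coding sequence against 28.5 for Hk1 and 19.3 for Hk2. Among the phosphofructokinase subunits, Pfkl and Pfkp lay close together in mRNA per length, with 16.7 and 16.1 CPM per kilobase of exon, and Pfkm was at 2.55. Before division by length Pfkl was at 112 and Pfkp at 216 CPM. Their joined exons span 6675 and 13401 bases, with coding lengths of 2340 and 2352, so the closeness rests on the length used. Of the carriers, Slc16a3 and Slc16a1 stood at 16.4 and 15.0 mRNA CPM per kilobase of exon, Slc2a1 at 7.30 and Slc2a3 at 4.06.

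**Figure D1:**
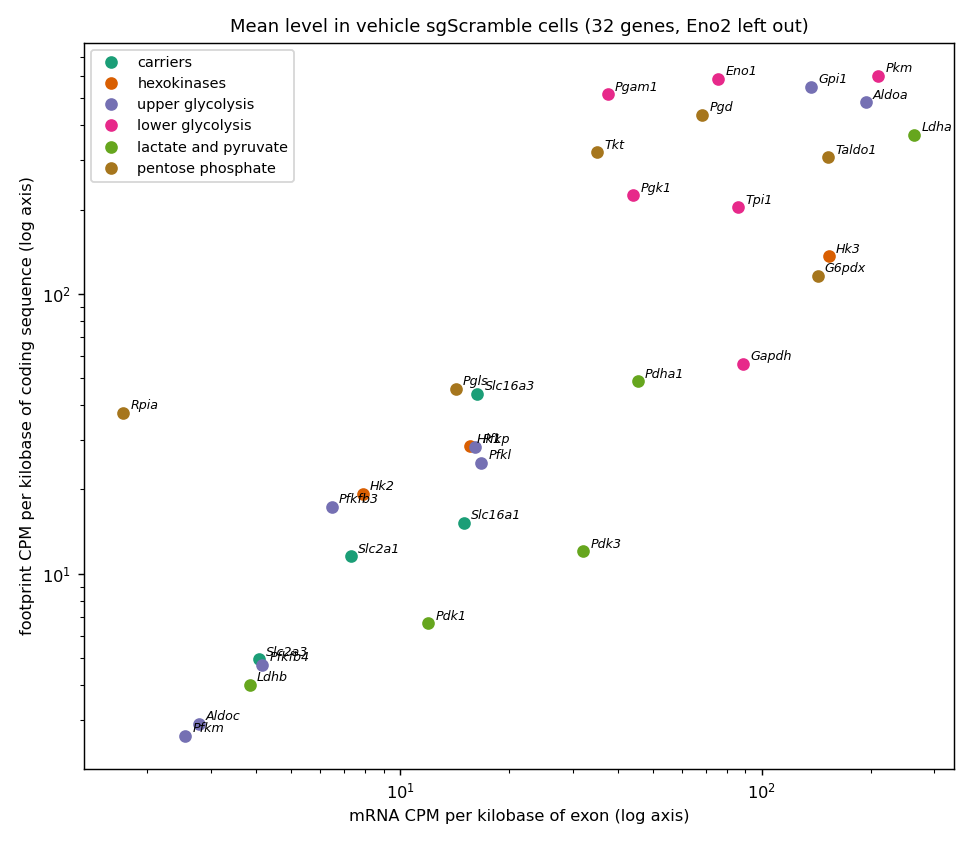
Mean mRNA level per kilobase of exon (x axis, log) and mean footprint level per kilobase of coding sequence (y axis, log) in vehicle sgScramble cells, with 1 point a gene, Eno2 left out, and colours for the roles. Ldha, at 264 CPM per kilobase, lies farthest right, and Pkm, at 602, lies highest. Gapdh, at 88.6 in mRNA and 56.1 in footprints, is low in footprints for its mRNA. Counts on copies of Gapdh came to 1480% of its own in footprints against 13.5% in RNA, so its footprint level is uncertain.

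Footprints are short, and 14 of the 33 members share coding sequence with other genes, mostly processed pseudogenes. Of all stretches of 30 coding bases, 100% of those in Pgk1 and Pgam1, 94.3% in Gapdh, 89.9% in Eno1 and 78.3% in Pkm also occurred in another gene. Counts assigned to these copies came to 1480% of the counts of Gapdh in footprints against 13.5% in RNA. They came to 280% against 2.05% for Eno1, 283% against 0.386% for Ldha and 252% against 0.187% for Pgk1. How reads with several matches were counted is not given in the sources used here, so footprint values of these genes may hold part of their own reads or reads of their copies and are uncertain. The other 19 members, among them the carriers, the hexokinases, the phosphofructokinases and Aldoc, had no such stretch. Gapdh and its copy Gm7336 on chromosome 7 were identical over 1017 bases, coding bases 61 to 1077, which is 94.4% of the coding sequence. Eno1, the main enolase, and its copy Gm4735 on chromosome 2 differed by 5 substitutions over 1302 coding bases. The stretch of coding bases 687 to 766 of Eno1 is shown beside that of the copy in build GRCm38, because it holds one of the few bases by which a footprint can be placed. A read that does not cover that base matches both genes here. The capital letter marks the base that differs.
Eno1: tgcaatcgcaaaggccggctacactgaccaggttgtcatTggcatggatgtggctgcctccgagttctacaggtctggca
Gm4735: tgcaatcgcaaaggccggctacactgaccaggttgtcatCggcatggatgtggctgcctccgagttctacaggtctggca

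**Figure D2:**
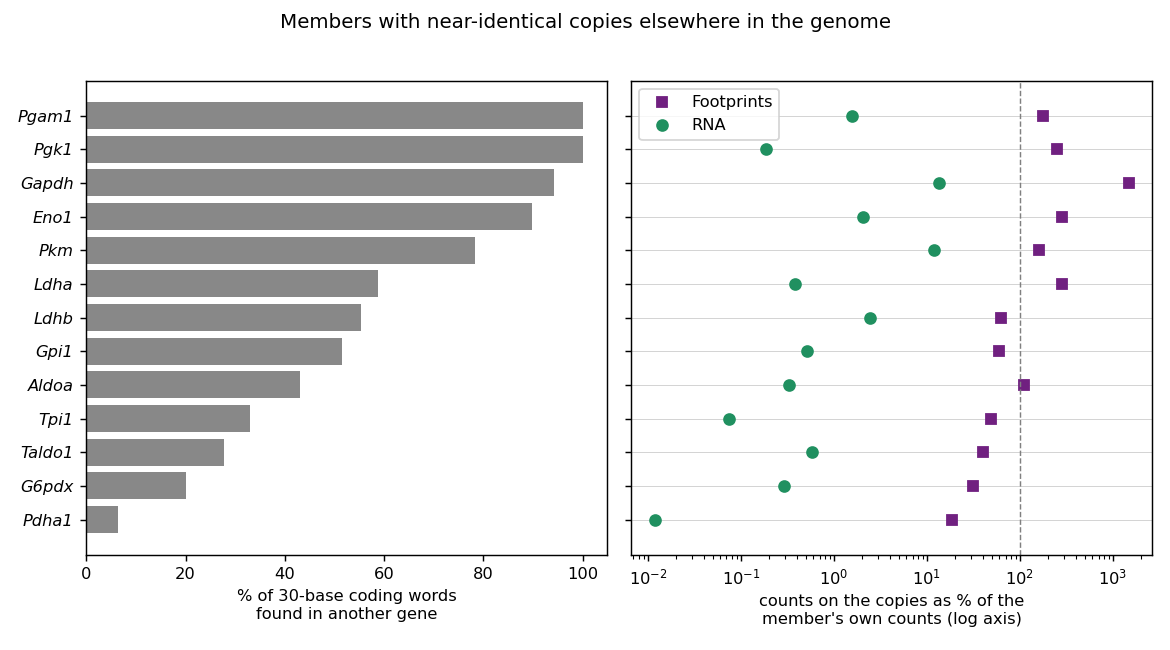
Left, the percent of 30-base coding stretches of each member that occur in another gene. Right, counts on those copies as a percent of the member's own counts, over all libraries (log axis): squares for footprints lie to the right of circles for RNA for all 13 genes shown, up to 1480% for Gapdh, and the dashed line marks equal counts.

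Treatment raised mRNA of 6 members and lowered 2 in sgOgfod1 cells, of 32 tested. Over all genes 9.87% were called in this comparison, 5.69% higher and 4.18% lower. In sgScramble cells 12 of 32 members rose and 2 fell, where 12.9% of all genes were called, 8.6% higher and 4.34% lower. Eno2 had too few RNA counts to be tested. The median log2 fold change of the tested members was 0.16 in sgOgfod1 and 0.23 in sgScramble cells, with 24 of 32 above 0 in sgOgfod1 and 22 of 32 in sgScramble cells, while the median of all genes was -0.01 in sgScramble cells. Slc2a3, Slc16a3, Gpi1, Eno1 and Ldha rose and Aldoc fell in both genotypes. These 2 comparisons share no mouse. Treated and vehicle libraries did not overlap for 3 members in sgOgfod1 cells, where 9.57% of all genes did not, and for 8 in sgScramble cells, where 12.3% did not. Summed over members, mRNA came to 9562 ± 995 CPM in treated sgOgfod1 and 7664 ± 570 in vehicle sgOgfod1 cells, and to 10788 ± 2489 in treated sgScramble and 7799 ± 584 in vehicle sgScramble cells (SD).

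In footprints, from 12 libraries against 23 in RNA, fewer members were called with treatment. Over all genes the share called in sgScramble cells was larger in footprints, 15.6% against 12.9% in RNA. In sgOgfod1 cells it was smaller, 8.22% against 9.87%. The cause of the lower member counts was not tested. In sgOgfod1 cells 4 of 33 members rose and 1 fell, where 8.22% of all genes were called, 4.65% higher and 3.56% lower. In sgScramble cells 2 of 33 rose and 4 fell, where 15.6% of all genes were called, 8.12% higher and 7.44% lower. Slc2a3 and Ldha rose in both assays in sgOgfod1 cells, and Slc2a3 and Hk1 rose and Aldoc and Pfkl fell in both assays in sgScramble cells. Treated and vehicle footprint libraries did not overlap for 12 members in sgOgfod1 cells, where 36.7% of all genes did not, and for 18 in sgScramble cells, where 31.2% did not. The sum over members was 7242 ± 141 footprint CPM in treated sgOgfod1 and 6577 ± 568.1 in vehicle sgOgfod1 cells, and 7518 ± 445 in treated sgScramble and 7272 ± 121 in vehicle sgScramble cells (SD, n = 2, 3, 4 and 3).

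Library numbers of 17 and above, as the labels give them, occur in treated mice alone: in RNA in 3 of 6 treated sgOgfod1 and 5 of 7 treated sgScramble libraries, and in footprints in 2 of 2 treated sgOgfod1 and 2 of 4 treated sgScramble libraries. With a term for them 5 members in sgOgfod1 and 8 in sgScramble cells were called in RNA, and 0 in sgOgfod1 and 3 in sgScramble cells in footprints. The RNA calls lost with it were Slc2a1, Eno1 and Ldha in sgOgfod1 cells and Eno1, Pkm, Pgk1, Ldha, Pdha1 and G6pdx in sgScramble cells, and the footprint calls lost were all of those in sgOgfod1 cells and Hk1, Ldhb and Pgls in sgScramble cells. In footprints the term could be estimated from treated sgScramble libraries alone. With it the sgOgfod1 footprint log2 fold changes were 1.71 for Slc2a3, -0.51 for Pfkl, 0.55 for G6pdx, 0.60 for Gapdh and 0.50 for Ldha. Among mice with a footprint library alone, Slc2a3 was the only member called in RNA in sgOgfod1 cells, and Pgk1, Ldha, Pdha1 and G6pdx lost their calls in sgScramble cells. Without the libraries that stood apart 11 members were called in RNA in sgOgfod1 and 14 in sgScramble cells. The RNA count in sgScramble cells was 9 without vehicle sgScramble replicate 3 or 4. That in sgOgfod1 cells was 5 without any 1 vehicle sgScramble library, vehicle sgOgfod1 replicate 2 or treated sgOgfod1 replicate 6, 4 without vehicle sgOgfod1 replicate 3 or 4 or treated sgOgfod1 replicate 2, 3 without vehicle sgOgfod1 replicate 1 and 2 without vehicle sgOgfod1 replicate 5. The footprint count in sgScramble cells was 3 without vehicle sgScramble replicate 2 or 3 or treated sgScramble replicate 3, and that in sgOgfod1 cells was 3 without vehicle sgOgfod1 replicate 3 or 5 or treated sgOgfod1 replicate 4 and 2 without treated sgOgfod1 replicate 5.

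**Figure D3:**
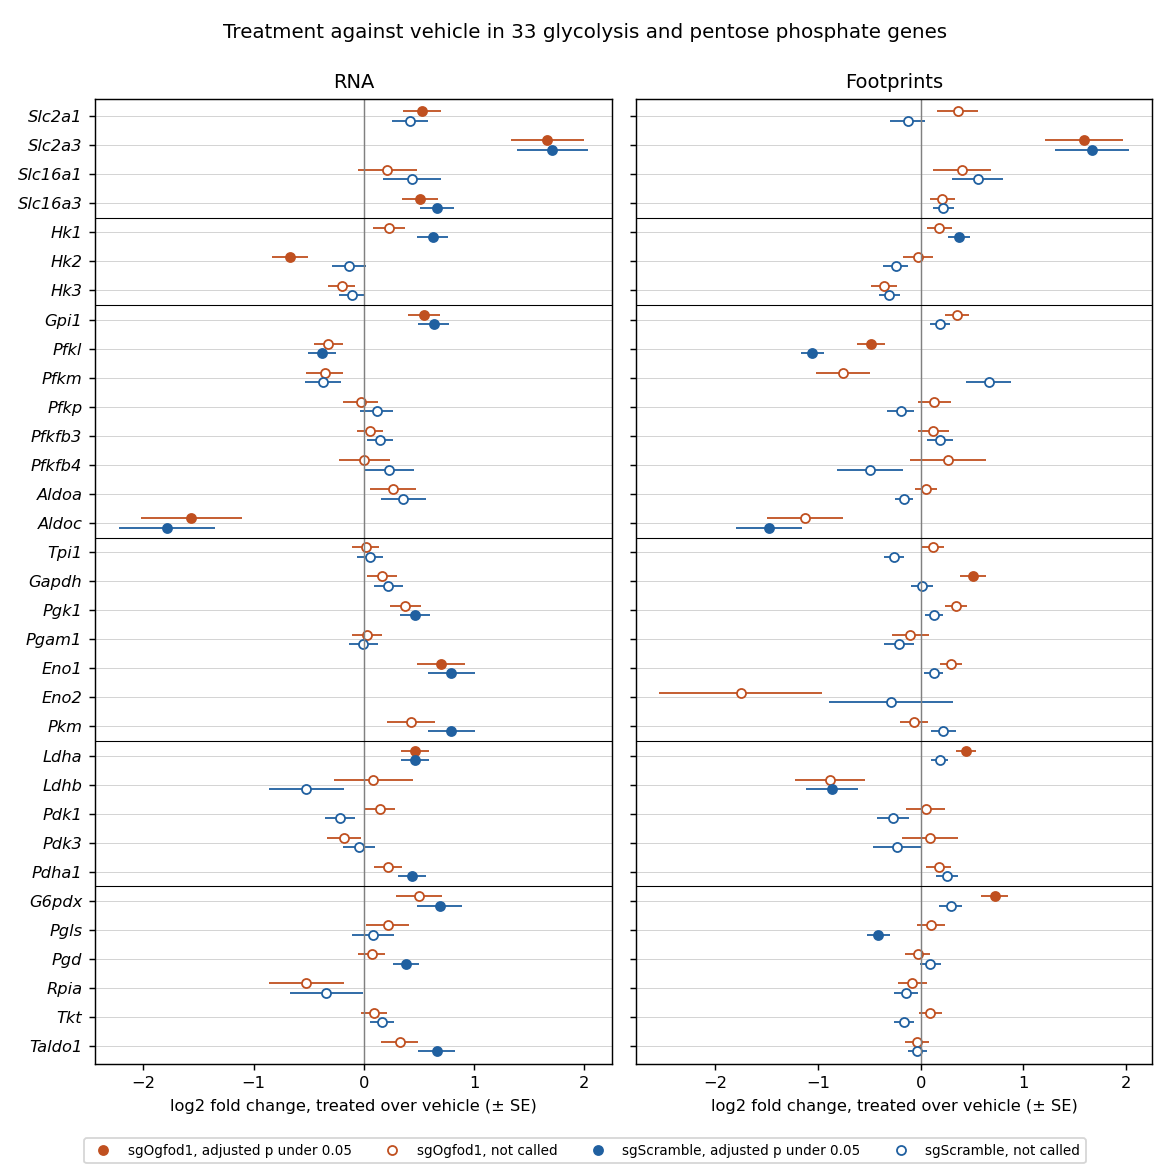
Log2 fold change of treated over vehicle for each member in RNA (left) and footprints (right), with the standard error as a bar; filled points passed an adjusted p of 0.05, orange for sgOgfod1 and blue for sgScramble cells, and lines separate the roles. Slc2a3 lies between 1.60 and 1.71 in both assays and genotypes (0.55 in sgOgfod1 footprints without treated sgOgfod1 replicate 4), and Aldoc between -1.12 and -1.79.

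Promoters of 5 of the 6 members that changed in RNA in both genotypes, all but Slc2a3, are shown next, as RefSeq gives them for GRCm38.p6, from 250 bases before the start to 50 after. RefSeq windows matched 32 of the 33 members, and the window whose transcription start lay closest to the annotated start of the gene, on its own strand, was taken. The letters ACGTG and GCGTG, the core that hypoxia-inducible factor binds, are in capitals wherever they occur on either strand, and CACGTG, the palindrome known for Myc and its partners, holds ACGTG on both strands. Slc16a3 is at chr11:120948817-120949116 on the plus strand, Gpi1 at chr7:34230287-34230586 on the minus strand, Aldoc at chr11:78322823-78323122 on the plus strand, Eno1 at chr4:150236458-150236757 on the plus strand and Ldha at chr7:46845554-46845853 on the plus strand. Slc16a3 held 2 copies of ACGTG, Gpi1 held neither, Aldoc 1 of ACGTG and 2 of GCGTG, Eno1 2 of GCGTG and Ldha 5 of ACGTG with 2 of GCGTG.
Slc16a3: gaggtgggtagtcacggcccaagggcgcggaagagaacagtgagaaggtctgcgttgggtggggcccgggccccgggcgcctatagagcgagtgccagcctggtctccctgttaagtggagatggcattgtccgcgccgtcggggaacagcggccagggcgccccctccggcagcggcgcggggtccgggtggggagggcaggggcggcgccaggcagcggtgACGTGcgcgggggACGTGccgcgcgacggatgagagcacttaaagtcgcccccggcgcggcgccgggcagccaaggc
Gpi1: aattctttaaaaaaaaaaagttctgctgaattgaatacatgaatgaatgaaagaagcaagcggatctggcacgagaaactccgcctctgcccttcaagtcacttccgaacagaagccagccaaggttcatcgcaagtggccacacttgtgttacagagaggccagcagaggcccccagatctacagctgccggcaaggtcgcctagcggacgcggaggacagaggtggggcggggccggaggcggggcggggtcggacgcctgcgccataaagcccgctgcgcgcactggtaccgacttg
Aldoc: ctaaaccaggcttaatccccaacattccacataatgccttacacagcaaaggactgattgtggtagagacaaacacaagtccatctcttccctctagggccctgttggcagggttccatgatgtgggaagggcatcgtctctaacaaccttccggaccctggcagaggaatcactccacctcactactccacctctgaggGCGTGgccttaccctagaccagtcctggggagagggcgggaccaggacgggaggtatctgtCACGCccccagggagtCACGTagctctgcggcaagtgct
Eno1: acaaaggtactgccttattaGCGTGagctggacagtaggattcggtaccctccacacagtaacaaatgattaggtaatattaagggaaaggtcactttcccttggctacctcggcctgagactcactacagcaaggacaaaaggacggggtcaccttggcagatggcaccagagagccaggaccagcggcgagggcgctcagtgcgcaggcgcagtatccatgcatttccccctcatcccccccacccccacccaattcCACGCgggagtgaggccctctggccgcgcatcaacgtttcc
Ldha: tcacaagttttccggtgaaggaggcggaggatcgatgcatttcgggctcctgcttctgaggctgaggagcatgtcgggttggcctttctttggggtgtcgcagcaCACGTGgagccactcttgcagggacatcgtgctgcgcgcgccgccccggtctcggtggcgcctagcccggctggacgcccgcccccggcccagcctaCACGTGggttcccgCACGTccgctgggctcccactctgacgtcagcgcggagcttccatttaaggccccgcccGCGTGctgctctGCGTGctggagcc
Either motif occurred in 26 of the 32 member windows, 81.2%, and in 14380 of all 32851 windows, 43.8%. ACGTG occurred in 43.8% of member windows against 19.6% of all, GCGTG in 62.5% against 32.4%, and CACGTG in 9.38% against 7.15%. All these motifs hold the bases CG, and the windows compared were not matched to the members in base content or expression. The cause of these differences, and binding by any factor, was not tested. Gpi1, which rose, holds neither motif in this window, and Aldoc, which fell, holds both.

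Among the carriers, Slc2a3, a high-affinity glucose carrier on chromosome 6 (chr6:122727809-122801640, minus strand, GRCm38), moved most. Its mRNA was at 73.7 (lowest), 155 (median) and 305 (highest) CPM in treated sgOgfod1 cells, against 53.6, 71.5, 58.0, 40.3 and 40.7 CPM in vehicle sgOgfod1 replicates 1 to 5. In treated sgScramble cells it was at 62.7, 87.8 and 173 CPM, against 37.2, 28.9, 28.04, 22.4 and 30.6 CPM in vehicle sgScramble replicates 1 to 5. Every treated library lay above every vehicle library of its genotype, and vehicle sgOgfod1 libraries lay above vehicle sgScramble libraries. The log2 fold change of treated over vehicle was 1.66 ± 0.33 (SE) in sgOgfod1 cells (edgeR adjusted p = 0.00249) and 1.71 ± 0.33 in sgScramble cells (edgeR adjusted p = 0.00125). Footprints were at 54.5 and 17.4 CPM in treated sgOgfod1 replicates 4 and 5, against 12.7, 11.2 and 11.7 CPM in vehicle sgOgfod1 replicates 3, 4 and 5. They were at 18.6, 29.9, 23.6 and 21.2 CPM in treated sgScramble replicates 1, 2, 3 and 5, against 6.47, 7.87 and 7.63 CPM in vehicle sgScramble replicates 2, 3 and 5. Treated and vehicle libraries did not overlap in either genotype, and treated sgOgfod1 replicate 4 was far above replicate 5. Its log2 fold change of footprints was 1.60 ± 0.38 in sgOgfod1 cells (edgeR adjusted p = 0.0309) and 1.67 ± 0.36 in sgScramble cells (edgeR adjusted p = 0.0125). The RNA calls were kept under every alternative tried and without any 1 library. The footprint call was lost in sgScramble cells without vehicle sgScramble replicate 2 (adjusted p = 0.0577), and in sgOgfod1 cells without treated sgOgfod1 replicate 4 (0.165, with a log2 fold change of 0.55), vehicle sgOgfod1 replicate 3 (0.0845), 4 (0.0803) or 5 (0.0866) or vehicle sgScramble replicate 3 (0.0505).

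Slc16a3, the lactate exporter of glycolytic cells, rose in RNA in both genotypes. The mRNA stood at 103, 128 and 166 CPM (lowest, median, highest) in treated sgOgfod1 cells, against 77.7, 103, 101, 95.6 and 81.2 CPM in vehicle sgOgfod1 replicates 1 to 5. It stood at 70.1, 145 and 164 CPM in treated sgScramble cells, against 97.5, 86.3, 78.8, 90.1 and 82.1 CPM in vehicle sgScramble replicates 1 to 5. The groups overlapped in both genotypes, in sgScramble cells through treated replicate 4 alone. The log2 fold change was 0.51 ± 0.16 in sgOgfod1 (edgeR adjusted p = 0.0461) and 0.66 ± 0.16 in sgScramble cells (edgeR adjusted p = 0.00706). Its footprints were at 55.0 and 72.0 CPM in treated sgOgfod1 against 58.6, 56.2 and 50.1 CPM in vehicle sgOgfod1 libraries. They were at 74.2, 70.4, 72.1 and 72.4 CPM in treated sgScramble against 65.97, 59.2 and 60.6 CPM in vehicle sgScramble libraries. The sgScramble groups did not overlap, yet neither footprint difference was called (edgeR adjusted p = 0.332 in sgOgfod1 and 0.157 in sgScramble cells). Slc2a1, the basal glucose carrier, averaged 31.7 ± 7.09 mRNA CPM in treated sgOgfod1 and 22.0 ± 2.68 in vehicle sgOgfod1 cells (SD, n = 6 and 5), a called rise of 0.53 ± 0.17 on the log2 scale (edgeR adjusted p = 0.0489). In sgScramble cells its log2 fold change was 0.42 ± 0.16 (edgeR adjusted p = 0.0941). Slc16a1, the other lactate carrier, was not called in either genotype or assay. The RNA calls in sgOgfod1 cells lay near the threshold: that of Slc16a3 was lost on leaving out any 1 of 18 of the 23 libraries, with adjusted p up to 0.123 (without vehicle sgOgfod1 replicate 1), and that of Slc2a1 on leaving out any 1 of 17, up to 0.134 (without vehicle sgOgfod1 replicate 4).

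**Figure D4:**
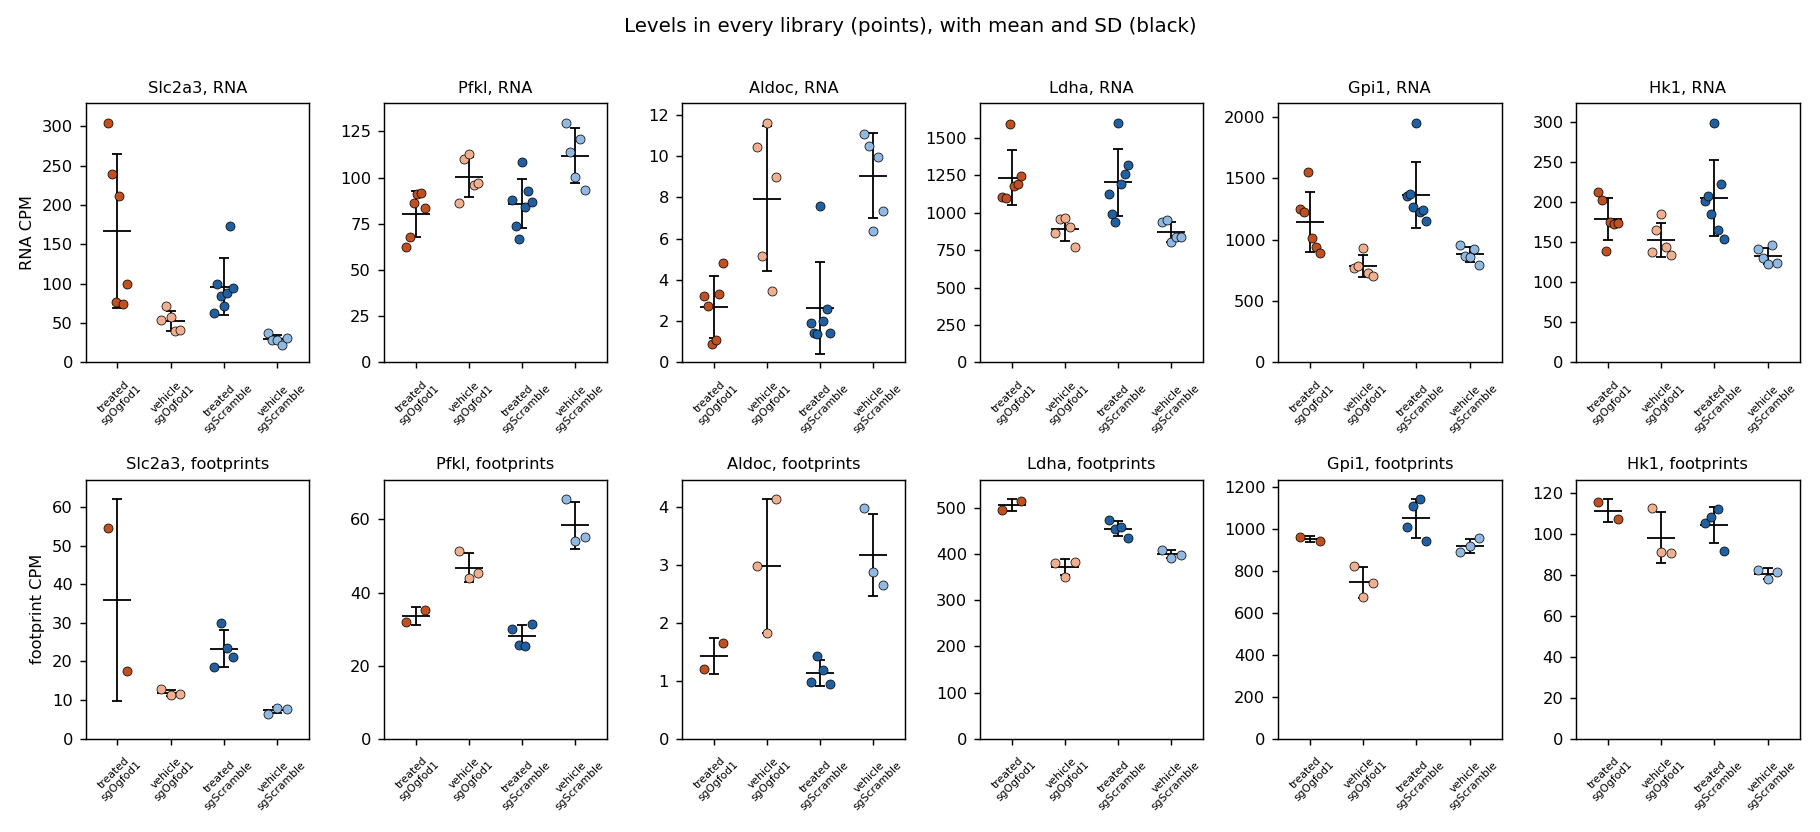
CPM of 6 members in every library (points) with the mean and SD of each group (black), mRNA above and footprints below; axes start at 0. In treated cells Slc2a3 lies above its vehicle groups in both assays, with mRNA from 62.7 to 173 CPM in treated sgScramble cells against 22.4 to 37.2 in vehicle sgScramble cells, and Pfkl footprints lie below, at 25.3 to 31.5 against 54.2 to 65.7 CPM.

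Of the hexokinases, which trap glucose as a sugar phosphate, Hk1 rose in sgScramble cells in both assays. Its mRNA was at 138, 174 and 212 CPM (lowest, median, highest) in treated sgOgfod1 cells, against 138, 165, 184, 143 and 134 CPM in vehicle sgOgfod1 replicates 1 to 5. In treated sgScramble cells it was at 154, 201 and 299 CPM, against 141, 130, 123, 146 and 124 CPM in vehicle sgScramble replicates 1 to 5. The groups did not overlap in sgScramble and did overlap in sgOgfod1 cells. Its log2 fold change of mRNA was 0.23 ± 0.14 in sgOgfod1 (edgeR adjusted p = 0.333) and 0.63 ± 0.14 in sgScramble cells (edgeR adjusted p = 0.00471). Footprints of Hk1 were at 116 and 107 CPM in treated sgOgfod1 against 113, 91.2 and 90.9 CPM in vehicle sgOgfod1 libraries. They were at 106, 109, 112 and 92.0 CPM in treated sgScramble against 82.7, 77.9 and 81.7 CPM in vehicle sgScramble libraries. Again the groups were apart in sgScramble cells alone, with a log2 fold change of 0.18 ± 0.12 in sgOgfod1 (edgeR adjusted p = 0.407) and 0.37 ± 0.10 in sgScramble cells (edgeR adjusted p = 0.0233). Hk2, the inducible hexokinase bound to mitochondria, fell in RNA in sgOgfod1 cells, with 34.6 ± 8.85 CPM in treated and 55.1 ± 7.80 in vehicle cells (SD, n = 6 and 5) and a log2 fold change of -0.67 ± 0.16 (edgeR adjusted p = 0.0103). In sgScramble cells it averaged 42.9 ± 7.56 CPM in treated and 47.1 ± 1.69 in vehicle cells (edgeR adjusted p = 0.644). Hk3, the hexokinase of myeloid cells, was not called, with mRNA means from 489 to 563 CPM over the 4 groups. The treatment effects on Hk1 and Hk2 did not differ by a called amount between genotypes, the interaction for Hk2 RNA being -0.54 ± 0.23 (unadjusted p = 0.027). The footprint call of Hk1 was lost on leaving out vehicle sgScramble replicate 2 (adjusted p = 0.0645), 3 (0.107) or 5 (0.0656) or treated sgScramble replicate 2 (0.0562) or 3 (0.062), and the Hk2 call among mice with a footprint library alone (0.465).

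In upper glycolysis, Gpi1, the isomerase that turns glucose phosphate into fructose phosphate, rose in RNA in both genotypes. The mRNA stood at 892, 1121 and 1549 CPM (lowest, median, highest) in treated sgOgfod1 cells, against 766, 787, 935, 729 and 704 CPM in vehicle sgOgfod1 replicates 1 to 5. It stood at 1153, 1264 and 1956 CPM in treated sgScramble cells, against 956, 869, 859, 926 and 794 CPM in vehicle sgScramble replicates 1 to 5. The sgScramble groups did not overlap, and in sgOgfod1 cells vehicle replicate 3 overlapped the lowest treated library. The log2 fold change was 0.55 ± 0.15 in sgOgfod1 (edgeR adjusted p = 0.018) and 0.63 ± 0.14 in sgScramble cells (edgeR adjusted p = 0.0044). Its footprints were at 964 and 942 CPM in treated sgOgfod1 against 823, 676 and 741 CPM in vehicle sgOgfod1 libraries. They were at 1010, 1110, 1144 and 941 CPM in treated sgScramble against 890, 918 and 956 CPM in vehicle sgScramble libraries. Footprint groups were apart in sgOgfod1 cells alone, and neither difference was called (edgeR adjusted p = 0.0766 in sgOgfod1 and 0.205 in sgScramble cells). A copy, Gm1840, shares 51.4% of the coding stretches of Gpi1. The RNA call in sgOgfod1 cells was lost without vehicle sgOgfod1 replicate 4 (adjusted p = 0.0518) or 5 (0.0534).

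Pfkl, the liver subunit of phosphofructokinase, which makes the committed step of glycolysis, fell. Its mRNA was at 62.2, 84.9 and 91.6 CPM (lowest, median, highest) in treated sgOgfod1 cells, against 86.2, 110, 113, 95.9 and 97.3 CPM in vehicle sgOgfod1 replicates 1 to 5. In treated sgScramble cells it was at 66.8, 87.0 and 108 CPM, against 130, 114, 100, 121 and 93.5 CPM in vehicle sgScramble replicates 1 to 5. Treated libraries lay lower with overlap in both genotypes, and the log2 fold change was -0.32 ± 0.13 in sgOgfod1 (edgeR adjusted p = 0.118) and -0.38 ± 0.13 in sgScramble cells (edgeR adjusted p = 0.046). Footprints were at 31.8 and 35.3 CPM in treated sgOgfod1 against 51.3, 43.97 and 45.3 CPM in vehicle sgOgfod1 libraries. They were at 30.05, 25.5, 25.3 and 31.5 CPM in treated sgScramble against 65.7, 54.2 and 55.2 CPM in vehicle sgScramble libraries. Neither pair overlapped, and the sgScramble values differed most. Its log2 fold change of footprints was -0.48 ± 0.14 in sgOgfod1 (edgeR adjusted p = 0.0403) and -1.06 ± 0.11 in sgScramble cells (edgeR adjusted p = 5.46e-05). The difference between the genotypes was 0.57 ± 0.18 (unadjusted p = 0.005, edgeR adjusted p = 0.334). The footprint call in sgScramble cells was kept under every alternative and without any 1 library. The RNA call was lost without any 1 of 14 libraries, with adjusted p up to 0.146 (without vehicle sgScramble replicate 1), and the footprint call in sgOgfod1 cells without vehicle sgScramble replicate 5 (0.0566), vehicle sgOgfod1 replicate 3 (0.13) or 5 (0.068) or treated sgOgfod1 replicate 4 (0.198) or 5 (0.08).

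The other phosphofructokinase subunits and their regulators were not called. Pfkm, the muscle subunit, had footprint means of 6.03 ± 1.68 CPM in treated sgOgfod1 and 10.4 ± 3.19 in vehicle sgOgfod1 cells (SD, n = 2 and 3), against 9.80 ± 2.04 in treated sgScramble and 6.15 ± 0.467 in vehicle sgScramble cells (SD, n = 4 and 3). The footprint groups were apart in both genotypes and in opposite directions. Its log2 fold changes were -0.76 ± 0.26 in sgOgfod1 (edgeR adjusted p = 0.0833) and 0.66 ± 0.22 in sgScramble cells (edgeR adjusted p = 0.0503), and their difference was -1.42 ± 0.34 (unadjusted p = 0.00065, edgeR adjusted p = 0.238). Pfkp, the platelet subunit, and Pfkfb3 and Pfkfb4, which set the activator of phosphofructokinase, had RNA log2 fold changes between -0.03 and 0.23 with adjusted p of 0.449 or more.

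Aldoc, the aldolase best known from brain, fell, at low levels. The mRNA stood at 0.888, 2.98 and 4.84 CPM (lowest, median, highest) in treated sgOgfod1 cells, against 10.5, 5.17, 11.6, 3.46 and 9.01 CPM in vehicle sgOgfod1 replicates 1 to 5. It stood at 1.38, 1.93 and 7.60 CPM in treated sgScramble cells, against 11.1, 10.5, 6.38, 9.95 and 7.35 CPM in vehicle sgScramble replicates 1 to 5. Each treated group overlapped its vehicle group, in sgScramble cells through treated replicate 4 alone. The log2 fold change was -1.57 ± 0.46 in sgOgfod1 (edgeR adjusted p = 0.0317) and -1.79 ± 0.44 in sgScramble cells (edgeR adjusted p = 0.00857). Its footprints were at 1.204 and 1.65 CPM in treated sgOgfod1 against 2.98, 1.82 and 4.14 CPM in vehicle sgOgfod1 libraries. They were at 0.980, 1.43, 1.18 and 0.950 CPM in treated sgScramble against 3.98, 2.87 and 2.65 CPM in vehicle sgScramble libraries. All treated libraries lay below the vehicle libraries of their genotype, from 255 footprint counts over the 12 libraries. Its log2 fold change of footprints was -1.12 ± 0.37 in sgOgfod1 (edgeR adjusted p = 0.0721) and -1.48 ± 0.32 in sgScramble cells (edgeR adjusted p = 0.00617). Both sgScramble calls held under every alternative and without any 1 library, whereas the RNA call in sgOgfod1 cells was lost without vehicle sgOgfod1 replicate 1 (adjusted p = 0.0783), 3 (0.0849) or 5 (0.0653) or treated sgOgfod1 replicate 2 (0.0507), 3 (0.0651) or 4 (0.0572). Aldoa, the main aldolase of the pathway, was not called, with RNA log2 fold changes of 0.26 ± 0.21 in sgOgfod1 and 0.36 ± 0.20 in sgScramble cells.

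In lower glycolysis, Eno1, the enolase that makes phosphoenolpyruvate, rose in RNA in both genotypes. Its mRNA was at 495, 594 and 916 CPM (lowest, median, highest) in treated sgOgfod1 cells, against 366, 378, 420, 405 and 378 CPM in vehicle sgOgfod1 replicates 1 to 5. In treated sgScramble cells it was at 475, 600 and 1451 CPM, against 465, 383, 391, 418 and 376 CPM in vehicle sgScramble replicates 1 to 5. Treated and vehicle libraries did not overlap in either genotype. The log2 fold change was 0.70 ± 0.22 in sgOgfod1 (edgeR adjusted p = 0.0433) and 0.79 ± 0.21 in sgScramble cells (edgeR adjusted p = 0.0152). Footprints were at 818 and 935 CPM in treated sgOgfod1 against 751, 679 and 712 CPM in vehicle sgOgfod1 libraries. They were at 764, 916, 839 and 811 CPM in treated sgScramble against 771, 772 and 744 CPM in vehicle sgScramble libraries. The sgOgfod1 groups were apart, and neither footprint difference was called (edgeR adjusted p = 0.113 in sgOgfod1 and 0.38 in sgScramble cells). Gm4735 shares 89.9% of the 30-base coding stretches of Eno1, and footprints from those cannot be told apart. The RNA call in sgOgfod1 cells was lost on leaving out any 1 vehicle library or treated sgOgfod1 replicate 2, 3 or 6, with adjusted p up to 0.0965 (without vehicle sgOgfod1 replicate 1). In sgScramble cells the log2 fold change was 0.51 without treated replicate 4.

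Gapdh, which makes the first NADH of the pathway, rose in footprints of sgOgfod1 cells. The mRNA stood at 312, 347 and 477 CPM (lowest, median, highest) in treated sgOgfod1 cells, against 290, 329, 350, 322 and 319 CPM in vehicle sgOgfod1 replicates 1 to 5. It stood at 315, 427 and 551 CPM in treated sgScramble cells, against 446, 349, 359, 361 and 317 CPM in vehicle sgScramble replicates 1 to 5. Both pairs overlapped and neither was called. Footprints were at 52.7 and 66.6 CPM in treated sgOgfod1 against 43.3, 36.7 and 45.1 CPM in vehicle sgOgfod1 libraries. They were at 64.2, 62.0, 63.3 and 55.1 CPM in treated sgScramble against 57.4, 62.7 and 61.2 CPM in vehicle sgScramble libraries. The vehicle sgOgfod1 libraries were lower than all others. Its log2 fold change of footprints was 0.51 ± 0.13 in sgOgfod1 (edgeR adjusted p = 0.0214) and 0.02 ± 0.11 in sgScramble cells (edgeR adjusted p = 0.936). With the counts of its copies added, the adjusted p in sgOgfod1 cells was 0.0542. The call was also lost without treated sgOgfod1 replicate 5 (0.232, with a log2 fold change of 0.33) or vehicle sgOgfod1 replicate 4 (0.0591).

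Pkm, the pyruvate kinase that ends glycolysis, and Pgk1, which makes its first ATP, rose in RNA in sgScramble cells. Pkm averaged 1815 ± 870 CPM in treated and 1049 ± 133 in vehicle sgScramble cells (SD, n = 7 and 5), with a log2 fold change of 0.79 ± 0.21 (edgeR adjusted p = 0.0156) and no overlap. In sgOgfod1 cells it averaged 1418 ± 298 CPM in treated and 1052 ± 83.1 in vehicle cells (edgeR adjusted p = 0.213). Pgk1 averaged 136 ± 33.4 CPM in treated and 98.9 ± 7.72 in vehicle sgScramble cells (SD, n = 7 and 5), with a log2 fold change of 0.47 ± 0.14 (edgeR adjusted p = 0.0263). In sgOgfod1 cells Pgk1 was at 127 ± 17.8 CPM in treated and 98.0 ± 9.14 in vehicle cells (edgeR adjusted p = 0.0911). The Pkm call was lost with the term for library numbers (0.0527), and its log2 fold change was 0.51 without treated sgScramble replicate 4. The Pgk1 call was lost with that term (0.195), among mice with a footprint library alone (0.4, with a log2 fold change of 0.20), and without vehicle sgScramble replicate 1 (0.0516), 3 (0.0681), 4 (0.0705) or 5 (0.0646). Tpi1, which interconverts the triose phosphates, and Pgam1, the phosphoglycerate mutase, had RNA log2 fold changes between -0.01 and 0.06. Eno2, the enolase of neurons, had 78 RNA counts over 23 libraries and 67 footprint counts over 12 libraries.

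In lactate and pyruvate metabolism, Ldha, the lactate dehydrogenase subunit that favours lactate, rose in RNA in both genotypes. Its mRNA was at 1096, 1183 and 1594 CPM (lowest, median, highest) in treated sgOgfod1 cells, against 864, 957, 968, 906 and 773 CPM in vehicle sgOgfod1 replicates 1 to 5. In treated sgScramble cells it was at 935, 1192 and 1603 CPM, against 937, 954, 802, 837 and 839 CPM in vehicle sgScramble replicates 1 to 5. The sgOgfod1 groups did not overlap, and in sgScramble cells the lowest treated library lay among the vehicle libraries. The log2 fold change was 0.47 ± 0.13 in sgOgfod1 (edgeR adjusted p = 0.0227) and 0.46 ± 0.13 in sgScramble cells (edgeR adjusted p = 0.016). Footprints were at 497 and 517 CPM in treated sgOgfod1 against 381, 352 and 385 CPM in vehicle sgOgfod1 libraries. They were at 474, 454, 459 and 436 CPM in treated sgScramble against 410, 393 and 398 CPM in vehicle sgScramble libraries. Treated libraries lay above vehicle libraries in both genotypes, and the difference was called in sgOgfod1 cells, at 0.44 ± 0.10 (edgeR adjusted p = 0.0123), against 0.19 ± 0.08 in sgScramble cells (edgeR adjusted p = 0.142). The RNA call in sgOgfod1 cells was lost without vehicle sgOgfod1 replicate 1 (0.0572) or 5 (0.0704), and the footprint call without treated sgOgfod1 replicate 5 (0.0715).

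Ldhb, the subunit that favours pyruvate, was low and fell in footprints of sgScramble cells. It averaged 2.19 ± 0.529 footprint CPM in treated and 4.02 ± 0.389 in vehicle sgScramble cells (SD, n = 4 and 3), with a log2 fold change of -0.86 ± 0.25 (edgeR adjusted p = 0.0285). In sgOgfod1 cells the means were 1.17 ± 0.382 in treated and 2.12 ± 0.296 in vehicle cells (SD, n = 2 and 3), with a log2 fold change of -0.88 ± 0.34 (edgeR adjusted p = 0.126). These values rest on 271 counts over 12 libraries, and the call was lost without vehicle sgScramble replicate 2 (0.0896), 3 (0.101) or 5 (0.0516) or treated sgScramble replicate 1 (0.0692), 3 (0.0681) or 5 (0.0603). Pdha1, the catalytic subunit of pyruvate dehydrogenase, rose in RNA in sgScramble cells, with 229 ± 47.2 CPM in treated and 169 ± 16.1 in vehicle cells (SD, n = 7 and 5) and a log2 fold change of 0.44 ± 0.13 (edgeR adjusted p = 0.0232). That call was lost with the term for library numbers (0.31) and without vehicle sgScramble replicate 1 (0.0742), 3 (0.0613) or 4 (0.0573). Pdk1 and Pdk3, kinases that switch pyruvate dehydrogenase off, had RNA log2 fold changes between -0.22 and 0.15, and neither was called.

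In the pentose phosphate pathway, G6pdx, the dehydrogenase that opens the pathway and makes NADPH, rose in footprints of sgOgfod1 cells and in RNA of sgScramble cells. The mRNA stood at 450, 560 and 763 CPM (lowest, median, highest) in treated sgOgfod1 cells, against 527, 409, 492, 307 and 341 CPM in vehicle sgOgfod1 replicates 1 to 5. It stood at 436, 681 and 1021 CPM in treated sgScramble cells, against 494, 460, 390, 448 and 404 CPM in vehicle sgScramble replicates 1 to 5. The groups overlapped in both genotypes, and the log2 fold change was 0.50 ± 0.21 in sgOgfod1 (edgeR adjusted p = 0.133) and 0.69 ± 0.20 in sgScramble cells (edgeR adjusted p = 0.0273). Footprints were at 290 and 241 CPM in treated sgOgfod1 against 182, 138 and 163 CPM in vehicle sgOgfod1 libraries. They were at 194, 220, 238 and 227 CPM in treated sgScramble against 183, 176 and 178 CPM in vehicle sgScramble libraries. Footprint groups were apart in both genotypes, and the log2 fold change was 0.72 ± 0.13 in sgOgfod1 (edgeR adjusted p = 0.00398) and 0.29 ± 0.11 in sgScramble cells (edgeR adjusted p = 0.0811). The footprint call held without any 1 library and was lost with the term for library numbers (0.229). The RNA call was lost with that term (0.345) and without vehicle sgScramble replicate 2 (0.0549), 3 (0.0705), 4 (0.0589) or 5 (0.0713) or treated sgScramble replicate 6 (0.0608) or 7 (0.0504).

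Pgls, the lactonase of the second step, was lower in footprints of treated sgScramble cells. Its mRNA was at 41.6, 52.4 and 84.3 CPM (lowest, median, highest) in treated sgOgfod1 cells, against 38.9, 50.8, 49.0, 53.5 and 52.5 CPM in vehicle sgOgfod1 replicates 1 to 5. In treated sgScramble cells it was at 36.6, 58.4 and 85.2 CPM, against 63.4, 43.9, 56.6, 58.7 and 45.7 CPM in vehicle sgScramble replicates 1 to 5. Both pairs overlapped and neither was called. Footprints were at 26.1 and 27.1 CPM in treated sgOgfod1 against 24.0, 22.5 and 27.2 CPM in vehicle sgOgfod1 libraries. They were at 29.8, 26.3, 25.5 and 24.4 CPM in treated sgScramble against 31.9, 38.9 and 35.3 CPM in vehicle sgScramble libraries. The vehicle sgScramble libraries were above all others, and the log2 fold change was 0.10 ± 0.14 in sgOgfod1 (edgeR adjusted p = 0.707) and -0.41 ± 0.11 in sgScramble cells (edgeR adjusted p = 0.0218). The call was lost without vehicle sgScramble replicate 3 (0.111) or 5 (0.0623) or treated sgScramble replicate 3 (0.0559) or 5 (0.0537).

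Taldo1, the transaldolase of the branch without oxidation, and Pgd, which makes the second NADPH, rose in RNA in sgScramble cells. Taldo1 averaged 524 ± 160 CPM in treated and 332 ± 13.4 in vehicle sgScramble cells (SD, n = 7 and 5), with no overlap and a log2 fold change of 0.66 ± 0.17 (edgeR adjusted p = 0.01), a call kept under every alternative and without any 1 library. In sgOgfod1 cells it averaged 458 ± 116 CPM in treated and 366 ± 15.4 in vehicle cells (edgeR adjusted p = 0.231). Pgd averaged 574 ± 47.2 CPM in treated and 441 ± 29.96 in vehicle sgScramble cells (SD, n = 7 and 5), with no overlap and a log2 fold change of 0.38 ± 0.12 (edgeR adjusted p = 0.0398). That call was lost without any 1 of 11 libraries, with adjusted p up to 0.105 (without vehicle sgScramble replicate 3). Tkt, the transketolase, and Rpia, which makes ribose phosphate, were not called in any treatment comparison.

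Loss of Ogfod1 called no member in RNA. Under vehicle 0 of 32 were called by edgeR, where 0.116% of all genes were, 0.0978% higher and 0.0186% lower, with 1 at an unadjusted p under 0.05 (4.62% of all genes) and 0 called by DESeq2. That gene was Slc2a3, with a log2 fold change of 0.84 ± 0.33 for vehicle sgOgfod1 over vehicle sgScramble (unadjusted p = 0.019, edgeR adjusted p = 0.888). Under treatment 0 of 32 were called by edgeR, where 0.391% of all genes were, 0.265% higher and 0.126% lower, with 3 at an unadjusted p under 0.05 (12.9% of all genes) and 0 called by DESeq2. The sgOgfod1 and sgScramble groups did not overlap for 2 members under vehicle, where 4.1% of all genes did not, and for 0 under treatment, where 0.475% did not. The 3 under treatment were Slc2a3 at 0.80 ± 0.29, Pgd at -0.30 and Pdk1 at 0.27 for treated sgOgfod1 over treated sgScramble cells. In footprints under vehicle Gapdh and Pgls were lower in sgOgfod1 cells, 2 of 33 where 1.81% of all genes were called, 0.908% higher and 0.902% lower. Gapdh averaged 41.7 ± 4.42 footprint CPM in vehicle sgOgfod1 and 60.5 ± 2.75 in vehicle sgScramble cells (SD, n = 3 each), with a log2 fold change of -0.53 ± 0.12 (edgeR adjusted p = 0.0287). Pgls averaged 24.6 ± 2.42 and 35.4 ± 3.46 CPM in the same groups, with a log2 fold change of -0.51 ± 0.12 (edgeR adjusted p = 0.0409). Without any 1 vehicle sgScramble library, or without vehicle sgOgfod1 replicate 3 or 4, 0 members were called, and without treated sgScramble replicate 3 there was 1. Under treatment 0 of 33 were called in footprints by edgeR, where 1.58% of all genes were, 0.59% higher and 0.99% lower, with 7 at an unadjusted p under 0.05 (15.8% of all genes) and 0 called by DESeq2, and Hk2 at 0.44, Pfkm at -0.69 and Ldhb at -0.90 had the smallest p. The groups did not overlap in footprints for 17 members under vehicle, where 26.5% of all genes did not, and for 9 under treatment, where 22.7% did not. The comparisons of Ogfod1 loss share their groups with those of treatment, so the vehicle groups of Gapdh and Pgls enter both.

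The treatment effect did not differ between genotypes by a called amount for any member. In RNA 0 of 32 were called by edgeR, where 0.0% of all genes were, with 1 at an unadjusted p under 0.05 (4.54% of all genes) and 0 called by DESeq2. In footprints 0 of 33 were called by edgeR, where 0.0656% of all genes were, 0.00547% higher and 0.0601% lower, with 6 at an unadjusted p under 0.05 (9.29% of all genes) and 0 called by DESeq2. After Pfkm and Pfkl, given above, the smallest p was that of Gapdh, at 0.49 ± 0.17 for the sgOgfod1 minus the sgScramble effect (unadjusted p = 0.00934).

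Translation efficiency, the footprints relative to the mRNA of the same mouse, fell for Pfkl and Slc16a3 in treated sgScramble cells, 2 of 33 members where 0.93% of all genes were called, 0.419% higher and 0.51% lower. The log2 ratio of footprint to mRNA CPM of Pfkl averaged -1.47 ± 0.08 in treated and -0.81 ± 0.07 in vehicle sgScramble cells (SD, n = 4 and 3), with no overlap and a change of -0.62 ± 0.12 (edgeR adjusted p = 0.0161). That of Slc16a3 averaged -1.07 ± 0.12 in treated and -0.41 ± 0.02 in vehicle sgScramble cells, with a change of -0.62 ± 0.12 (edgeR adjusted p = 0.0214). In sgOgfod1 cells Pfkl averaged -1.44 ± 0.10 in treated and -1.12 ± 0.02 in vehicle cells, and Slc16a3 -0.91 ± 0.01 in treated and -0.75 ± 0.05 in vehicle cells (SD, n = 2 and 3), and 0 of 33 members were called by edgeR, where 0.0839% of all genes were, 0.0664% higher and 0.0175% lower, with 2 at an unadjusted p under 0.05 (5.32% of all genes) and 0 called by DESeq2. For Pgls the change was 0.28 in sgOgfod1 and -0.68 ± 0.16 in sgScramble cells (edgeR adjusted p = 0.0528). The calls were lost without vehicle sgScramble mouse 2 (0.0926 for Pfkl and 0.118 for Slc16a3), 3 (0.055 and 0.082) or 5 (0.0864 and 0.0809) or treated sgScramble mouse 2 (0.062 and 0.0782), and that of Slc16a3 without treated sgScramble mouse 1 (0.051).

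In sgOgfod1 cells 27 of 33 changes with treatment were above 0 against 54.1% of all genes, with medians of 0.10 for members and 0.05 for all genes. In sgScramble cells 10 of 33 were above 0 against 50.6% of all genes, with medians of -0.18 for members and 0.01 for all genes. Under vehicle 5 of 33 differences of sgOgfod1 over sgScramble cells were above 0 against 53.8% of all genes, with medians of -0.18 for members and 0.05 for all genes. Under treatment 24 of 33 were above 0 against 59.5% of all genes, with medians of 0.13 for members and 0.13 for all genes. For the difference between genotypes in the treatment effect 28 of 33 were above 0 against 53.3% of all genes, with medians of 0.31 for members and 0.06 for all genes. Over 10012 protein-coding genes with coding lengths in the range of the members, the medians of these comparisons were -0.003, -0.06, -0.005, 0.06 and 0.06 in the same order. These comparisons share groups, and vehicle sgScramble and vehicle sgOgfod1 mice enter 3 of them each. For Ogfod1 loss under vehicle 0 of 33 were called by edgeR, where 0.0594% of all genes were, 0.0385% higher and 0.021% lower, with 7 at an unadjusted p under 0.05 (7.2% of all genes) and 0 called by DESeq2. Under treatment 0 of 33 were called by edgeR, where 0.0489% of all genes were, 0.0315% higher and 0.0175% lower, with 5 at an unadjusted p under 0.05 (6.75% of all genes) and 0 called by DESeq2. For the interaction 0 of 33 were called by edgeR, where 0.0% of all genes were, with 13 at an unadjusted p under 0.05 (5.81% of all genes) and 1 called by DESeq2. The interaction of Pgls was 0.96 ± 0.26 (unadjusted p = 0.0014), that of Gapdh 0.84 ± 0.25 (unadjusted p = 0.00336) and that of Slc16a3 0.60 ± 0.19 (unadjusted p = 0.00546). Members with copies, such as Gapdh, carry the limit on shared footprints given above.

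**Figure D5:**
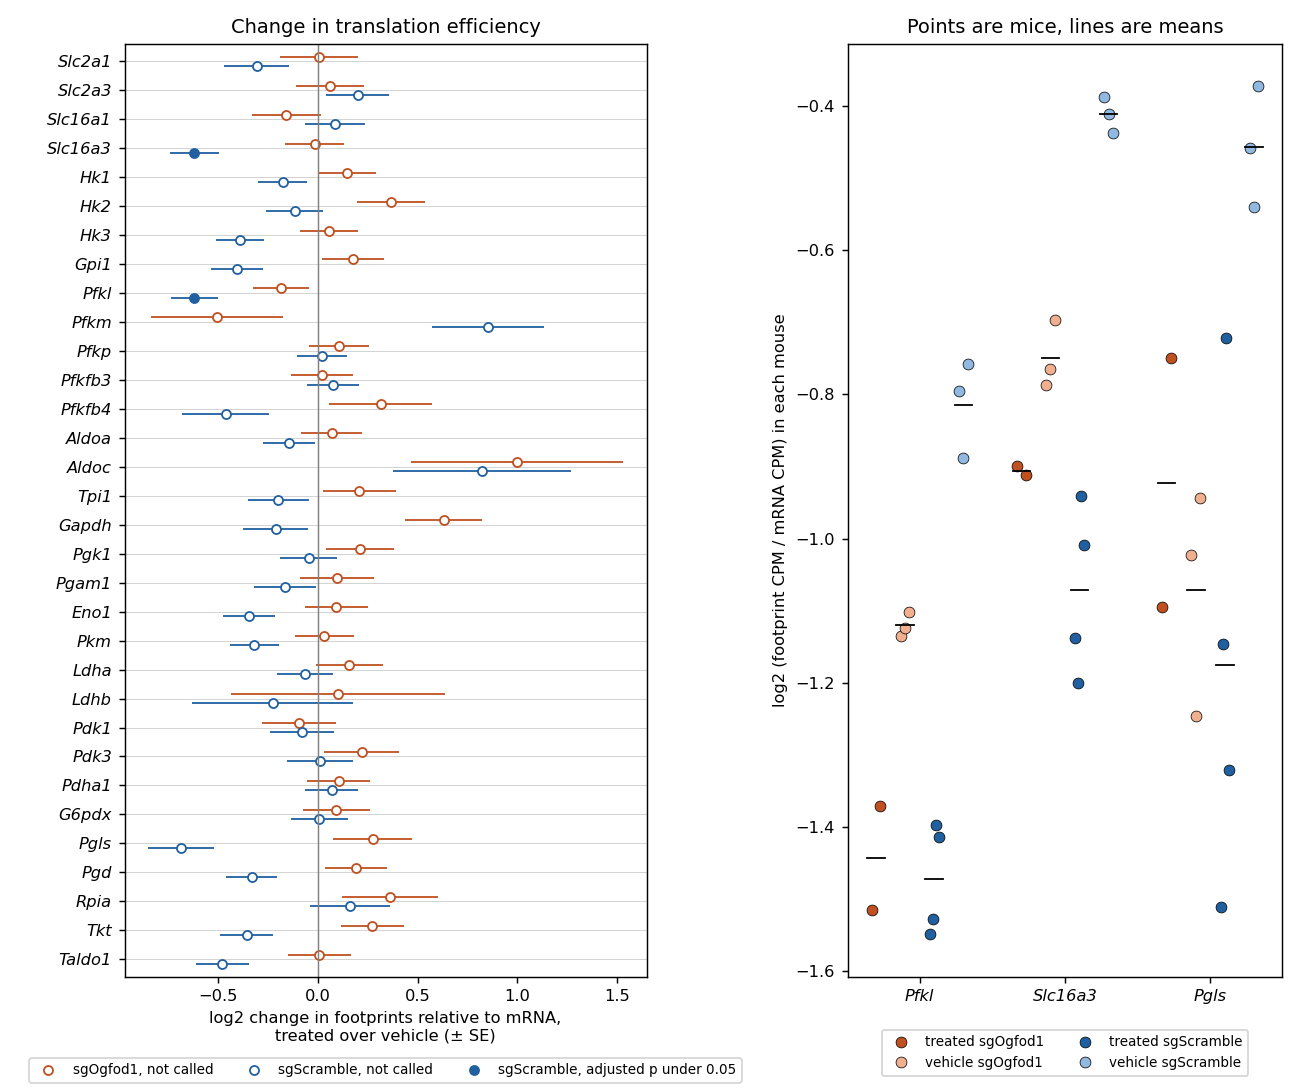
Left, log2 change in translation efficiency of each member but Eno2, treated over vehicle (± SE), orange for sgOgfod1 and blue for sgScramble cells; filled points passed an adjusted p of 0.05. Right, the log2 ratio of footprint to mRNA CPM in each mouse (points) with group means (lines): Pfkl and Slc16a3 in vehicle sgScramble mice, at -0.81 and -0.41 on average, lie above the other groups.

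Genes next to the members were described by lists. Of 14 other genes of the glycolytic pathway tested, 2 rose and 1 fell in RNA of treated sgOgfod1 cells, and 5 rose and 1 fell in treated sgScramble cells. Fbp1, which runs the phosphofructokinase step backwards, rose in RNA by 1.48 on the log2 scale in sgOgfod1 and by 1.64 in sgScramble cells, and by 1.32 in sgScramble footprints (edgeR adjusted p = 0.000212). Adpgk, a glucokinase that uses ADP, rose by 1.19 in sgOgfod1 and by 0.82 in sgScramble cells in RNA. Of 10 genes of pyruvate dehydrogenase and mitochondrial pyruvate entry tested in RNA, 1 rose and 1 fell in sgOgfod1 and 2 rose and 1 fell in sgScramble cells. Mpc2, a subunit of the mitochondrial pyruvate carrier, rose in RNA by 1.39 in sgOgfod1 and by 1.42 in sgScramble cells, and in footprints by 0.73 in sgOgfod1 and by 0.55 in sgScramble cells. Pdp2, the phosphatase that switches pyruvate dehydrogenase on, fell by 0.71 in sgOgfod1 and by 0.85 in sgScramble cells on the log2 scale in RNA. Of the 8 other pentose phosphate genes, 0 were called in RNA in either genotype by edgeR, and H6pd alone was called in footprints, with a log2 fold change of -0.36 in sgScramble cells. Of 9 other hexose and monocarboxylate carriers tested in RNA, 1 rose in sgOgfod1 cells and 1 rose and 1 fell in sgScramble cells, with Slc16a6 higher in both.

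Of 17 regulators of glycolysis, 3 fell in RNA of sgOgfod1 cells, Egln1, Mtor and Trp53, and 0 were called by edgeR in sgScramble cells. In footprints Egln1 alone of 16 fell in sgOgfod1 cells, and Myc, Egln1, Egln3 and Trp53 fell in sgScramble cells. Egln1, the prolyl hydroxylase that marks hypoxia-inducible factor for decay, had a log2 fold change of -0.99 in RNA of sgOgfod1 cells (edgeR adjusted p = 0.000647). Of 13 hypoxia targets outside glycolysis tested in RNA, 2 rose in sgOgfod1 cells and 2 rose and 1 fell in sgScramble cells. Ddit4, an inhibitor of mTOR signalling, rose by 1.48 in sgOgfod1 and by 1.93 in sgScramble cells, and Bhlhe40, a transcription factor, by 1.61 in sgOgfod1 and by 1.49 in sgScramble cells. In footprints 0 of 12 were called by edgeR in sgOgfod1 cells, and 3 rose and 3 fell in sgScramble cells. Over all genes, treatment called 9.87% in RNA and 8.22% in footprints of sgOgfod1 cells, and 12.9% and 15.6% in sgScramble cells.

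Genes listed as markers of other marrow cells moved with treatment beside the members. Of 16 markers of tissue macrophages, 10 rose in RNA of sgOgfod1 cells with a median log2 fold change of 2.11, and 15 rose in sgScramble cells with a median of 4.55. Summed over these markers, treated and vehicle libraries overlapped in both genotypes. The median sums were 1624 and 793 CPM in treated and vehicle sgOgfod1 cells. In sgScramble cells they were 1493 and 1066 CPM, and the highest sum, 6681 CPM, was that of treated sgScramble replicate 4. Of 16 markers of neutrophils and granulocytes, 9 rose in sgOgfod1 cells with a median of 1.70 and 10 rose in sgScramble cells with a median of 1.69. Of 10 markers of the MLL-AF9 leukemia, 4 fell in sgOgfod1 cells, and 1 rose and 2 fell in sgScramble cells. Of 11 erythroid markers 6 fell in sgOgfod1 cells, and 2 rose and 1 fell in sgScramble cells. Of 10 B cell markers 2 fell in sgOgfod1 cells, and 1 rose and 1 fell in sgScramble cells. Of 8 T and NK cell markers 0 were called by edgeR in sgOgfod1 and 3 rose in sgScramble cells. Of 7 megakaryocyte markers 3 rose in each genotype, and of 7 stromal and endothelial markers 2 rose in each. The part of other cells in the changes of the members was not tested. Nor was it tested whether the sorted leukemia cells themselves carried these markers.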

How the data were processed

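RNA-seq (Smart-seq2 libraries, with no strand and no molecular identifiers) and ribosome footprints (RNase I digestion and a sucrose cushion) were made from 1 lysate per mouse, per the labels. The authors deposited whole-number read counts per Ensembl gene for 23 RNA and 12 footprint libraries. The submitters' processing notes name STAR, Bowtie2, featureCounts, cutadapt and SAMtools as tools and GRCm38/mm10 as the build; their order, versions and settings for strand and for reads with several matches are not given in the sources used here. That setting decides how reads of members with copies were shared.

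Symbols, coordinates and lengths came from GENCODE M21 (GRCm38), which named 55227 of 55487 genes, and promoters from RefSeq. Aldoa is the symbol of 2 Ensembl genes, and the one with the longer coding sequence was used. Counts were filtered by filterByExpr, scaled by TMM and fitted with edgeR 4.0.16 (R 4.3.3, limma 3.58.1) by the robust quasi-likelihood test, all 4 groups in 1 fit, with Benjamini-Hochberg adjustment over 21474 genes in RNA, 18290 in footprints and 28606 in translation efficiency, called at 0.05. A standard error is the log2 fold change over the root of the F value. Translation efficiency was the assay-by-group term with the mouse as a block. Ratios per mouse used a pseudocount of 0.1 CPM. Copies were genes holding at least 5% of a member's 30-base coding words. The fits were tested on simulated data.

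All 33 members are named. For members called in at least 2 comparisons, values per library are given, except that treated RNA groups are given as lowest, median and highest. Where a comparison called none, up to 3 members with the smallest p are named. The members and lists were chosen with earlier results of these data known. Alternatives were DESeq2 1.42.0, RLE scaling, no filter, protein-coding genes, a term for library numbers, the replicate block, leaving out libraries and, chosen after seeing the data, copies added, the 2 groups alone, and mice with a footprint library alone. Libraries of a group differed by more than counting noise, so none was a repeat.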

Additional observations from a re-analysis of the deposited data

Results flagged for a closer look

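Of 165 groups of 4 to 10 libraries, 21 held a library far from the others, where chance gives about 1 in 20. In RNA, treated sgScramble replicate 4 was highest for Aldoa at 1444 CPM (next 724), Aldoc at 7.60 (2.61), Eno1 at 1451 (691), Gpi1 at 1956 (1370), Pdha1 at 331 (237), Pfkp at 363 (255), Pkm at 3760 (1747) and Taldo1 at 880 (486). It was lowest for Rpia at 1.69 (6.62) and Slc16a3 at 70.1 (139), and its summed macrophage markers, 6681 CPM, were the highest of all RNA libraries. Treated sgOgfod1 replicate 3 was highest for Aldoa at 794 (571), Gapdh at 477 (361) and Ldha at 1594 (1248), and replicate 1 for Eno2 at 0.604 (0.197). Treated sgScramble replicate 7 was highest for Slc2a1 at 54.0 (34.3) and replicate 6 for Slc2a3 at 173 (99.5). Vehicle sgOgfod1 replicate 4 was lowest for Slc2a1 at 17.3 (22.5), and vehicle sgScramble replicate 4 highest for Eno2 at 0.0733 (0.0178). In footprints of treated sgScramble cells, replicate 2 was highest for Ldhb at 2.98 (2.03), replicate 5 for Pfkfb3 at 38.3 (31.5) and replicate 3 for Pgk1 at 336 (302).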

How the results depend on the processing

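No member called in the main fit changed direction under the alternatives run. Direction was not compared for members not called or for medians. Members called in RNA with treatment numbered 8 in sgOgfod1 and 14 in sgScramble cells. In sgOgfod1 cells they numbered 5 with no filter, 5 with the term for library numbers and 1 among mice with a footprint library alone, and in sgScramble cells 8 with the library term. Footprint calls, 5 in sgOgfod1 and 6 in sgScramble cells, numbered 0 and 3 with the library term and 0 and 10 with the 2 groups alone, and 11 in sgScramble cells with protein-coding genes alone. For Ogfod1 loss under vehicle, RNA called 0, and 2 with the 2 groups alone; footprints called 2, and 4 by DESeq2 and 5 with no filter. Footprint calls for Ogfod1 loss under treatment were 0, and 3 with no filter, and for the interaction 0, and 1 with no filter. Translation efficiency in sgScramble cells called 2, and 9 by DESeq2 and 5 with protein-coding genes alone; Ogfod1 loss under vehicle called 1 with protein-coding genes alone and the interaction 1 by DESeq2. The cause was not tested. Copies added, the 2 groups alone and mice with footprints alone were chosen after seeing the data.

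Replicate numbers pair no mice by the labels: 9 of 31 same-numbered RNA pairs and 1 of 11 footprint pairs had deviations correlated above 0.1. With the replicate block 5 members in sgOgfod1 and 8 in sgScramble cells were called in RNA, and 0 in footprints for Ogfod1 loss under vehicle; without the block of mice 0 were called in translation efficiency in sgScramble cells.

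Leaving out 1 library at a time gave 2 to 10 RNA calls with treatment in sgOgfod1 and 9 to 14 in sgScramble cells, 0 to 1 for Ogfod1 loss under treatment, and 0 for loss under vehicle and the interaction. In footprints it gave 2 to 5 in sgOgfod1 and 3 to 8 in sgScramble cells, 0 to 3 for loss under vehicle, 0 to 1 under treatment and 0 for the interaction. In translation efficiency it gave 0 to 4 in sgScramble cells and 0 elsewhere. Treated sgOgfod1 cells have 2 footprint libraries, and Aldoc, Ldhb and Eno2 had 255, 271 and 67 footprint counts, which limits what could be called.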
